A study of Sus scrofa with 6 samples.

Results

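The miR-221 and miR-222 cluster was followed through 6 small RNA libraries of Rongchang pigs, 3 from milk exosomes and 3 from milk. Members were the entries of the deposited table whose mature name is miR-221 or miR-222, with or without an arm, and 3 of the 245 distinct entries met this rule: miR-221-3p, miR-221-5p and miR-222. The rule itself reads names, but the cluster was selected on the deposited levels of miR-221-3p in these libraries, so the levels and fold changes of its members are given without a test. Milk exosomes are small membrane vesicles collected from the milk, and they were sequenced as 1 group. Whole milk was the other group. The labels give no treatment, genotype, sex, age or sow for either group. The design text speaks of 3 randomly selected individuals and does not tell if a milk and an exosome library of one number share an animal, so the spread between libraries may be biological or technical. The title of the series sets the miRNAs of milk exosomes against those of milk, and this is the comparison below.

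miRNAs are short RNAs that lower the output of messenger RNAs which match their seed, the bases near the 5′ end. In mammals miR-221 and miR-222 come from neighbouring hairpins on the X chromosome and share a seed. In human cells they are known to repress CDKN1B, which encodes the cell cycle inhibitor p27, and KIT, the receptor of stem cell factor. They are abundant in human endothelial cells, where their action on KIT restrains vessel formation, and they decline as human red cell precursors mature. In the RefSeq gene table of the pig assembly Sscrofa11.1, MIR221 and MIR222 both stand on chromosome X, with 0 listed genes between them.

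The sequences are shown because the relation between the members lies in them. They are written 5′ to 3′ with T for U, as deposited, and capitals mark the seed, bases 2 to 8.
miR-221-3p: aGCTACATtgtctgctgggttt
miR-222: aGCTACATctggctactgggtct
miR-221-5p: aCCTGGCAtacaatgtagattt
miR-221-3p and miR-222 had the same first 8 bases, seed included. Aligned at the 5′ end they were identical at 11 of 22 positions, and after base 8 their longest shared run was ctgggt, 6 bases long. miR-221-5p is the other arm of the miR-221 hairpin and has another seed. The pair was alone in its seed among the 238 distinct sequences of the table (2 sequences of 238), and miR-221-5p was alone in its own (1 of 238). miR-221-3p and miR-221-5p are 22 bases long and miR-222 is 23, so levels were not scaled for length. How well each sequence is ligated and amplified was not measured, so a ratio between members is one of reads and not of molecules. None of the 3 sequences is listed under another name in this table.

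Four-letter motifs that have been tied to export of miRNAs in vesicles of other mammalian cells were searched on the printed strand only, since miRNAs are single-stranded, and their matches may overlap. miR-222 holds GGCT, as do 25 of the 238 sequences (10.5%). The 3 members hold no GGAG, CCCT or TGCA, which stand in 12.2%, 16.4% and 13.4% of the sequences. These matches describe letters and not sites. A second deposited sheet lists 4 further entries of the family with 3 distinct sequences, under names from other species. These include the other arm of the miR-222 hairpin under its human name, shown because the labelled table has only 1 arm of miR-222. Its entry is labelled L+2R-3, a variant with 2 bases more at the 5′ end and 3 fewer at the 3′ end than the reference. The capitals thus mark bases 2 to 8 of the listed variant, which are not the seed of the reference arm.
hsa-miR-222-5p: gGCTCAGTagccagtgtagat
The value columns of that sheet carry names that match no sample label, and they were not analysed here.

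Depth differed far more than the groups did. The values are the authors' normalized abundance, and the most frequent value above 0 in a library was taken as 1 read. On this estimate milk exosome 3 held 8020867 read equivalents and milk 1 held 9124580, which makes them the deep libraries. The shallow libraries were milk exosome 1 with 9313, milk exosome 2 with 3910, milk 2 with 4348 and milk 3 with 1901. The deep libraries also resembled each other most, with a Pearson correlation of log2 values of 0.994 across sequences. Milk exosome 1 and milk 2 followed at 0.768, so the closest libraries carried different group labels. miRNAs of the erythrocyte list (5 sequences, with miR-451 and miR-16) held 3.02% to 90.3% of the signal in exosomes and 10.7% to 90.7% in milk, with the highest value of each group in its deep library. The muscle list held 0.00443% to 55.6% in exosomes and 0.00261% to 10.7% in milk. The endothelial and stromal list held 0.0881% to 14.0% in exosomes and 0.0770% to 16.7% in milk. The epithelial list held 0.00276% to 0.408% in exosomes and 0.00110% to 1.26% in milk, and the leukocyte list 0.307% to 1.98% in exosomes and 1.22% to 3.36% in milk. miRNAs known to be abundant in milk, such as miR-148a-3p, held 1.32% to 13.5% in exosomes and 1.13% to 23.1% in milk. In a bulk library, fewer cells or vesicles of a type and less RNA in each cannot be told apart.

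miR-221-3p ranged from 0 to the 4th most abundant sequence of a library. Its deposited value was 4296, 0 and 188 in milk exosomes 1, 2 and 3, against 208, 1850 and 55.3 in milk 1, 2 and 3. Milk exosome 1 and milk 2 were high, the deep libraries and milk 3 lay at or below 208, and milk exosome 2 was listed at 0, so the groups overlapped. These values stand for 477, 0 and 2009 read equivalents in the exosome libraries and 2735, 129 and 4 in the milk libraries. The mean was 1495 ± 2428 (SD, n = 3) in exosomes and 704 ± 995 (n = 3) in milk. In both groups the SD exceeded the mean.

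miR-222, the partner with the same seed, followed a similar order with a smaller range. It was at 1027, 19.7 and 90.5 in milk exosomes 1, 2 and 3, against 81.9, 1319 and 41.5 in milk 1, 2 and 3. The value in milk exosome 2 is 1 read and that in milk 3 is 3 reads. The same libraries, milk 2 and milk exosome 1, were high, and the groups overlapped. The mean was 379 ± 562 (SD, n = 3) in exosomes and 481 ± 726 (n = 3) in milk, so on the deposited scale the 2 partners had their higher mean in different groups.

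miR-221-5p, usually the less kept arm of its hairpin, was low throughout. It was at 207, 0 and 5.06 in milk exosomes 1, 2 and 3, against 3.04, 28.7 and 13.8 in milk 1, 2 and 3. Milk exosome 1 was far above the rest, with 23 reads, while milk 2 and milk 3 had 2 reads and 1 read. In the shallow libraries other than milk exosome 1, the values of this arm are therefore at the limit of detection.

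**Figure D1:**
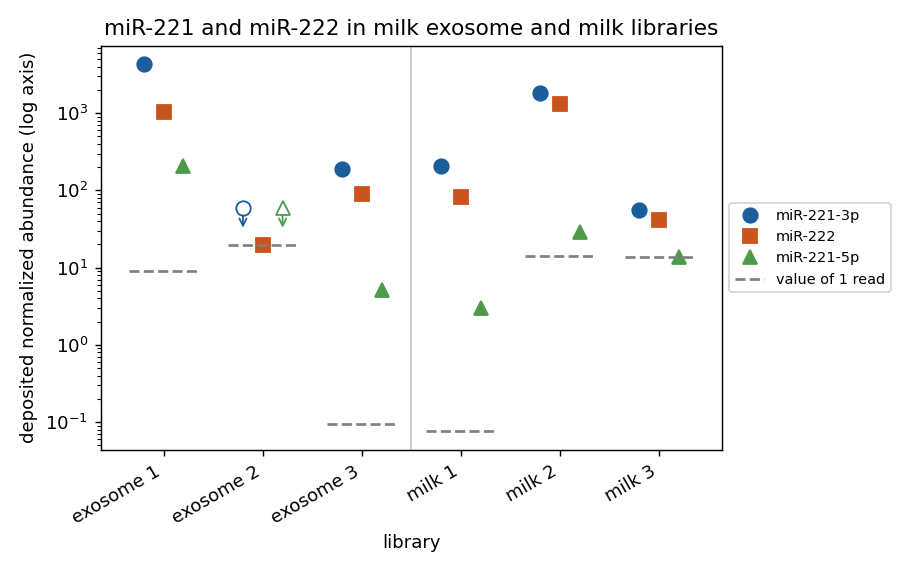
Deposited normalized abundance (log axis) of miR-221-3p, miR-222 and miR-221-5p in each library, exosome libraries left of the line. Hollow symbols with arrows stand at the value of 3 reads where a miRNA was listed at 0, and dashed lines show the value of 1 read; miR-221-3p and miR-222 were highest in milk exosome 1 and milk 2.

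Shares of the signal of the 238 listed sequences gave another view, since they do not depend on how libraries were scaled against each other. Intervals are exact Clopper-Pearson intervals at 95% on read equivalents. They cover counting error only, since no molecular identifiers tell copies of one molecule apart. miR-221-3p held 5.12% (95% interval 4.68% to 5.59%) of milk exosome 1 and 0.0250% (0.0240% to 0.0262%) of milk exosome 3. In milk it held 0.0300% (0.0289% to 0.0311%) of milk 1, 2.97% (2.48% to 3.52%) of milk 2 and 0.210% (0.0574% to 0.538%) of milk 3. In milk exosome 2 it was listed at 0, which allows a share of up to 0.0767% by the rule of 3 reads, and the upper end of the exact interval is 0.0943%. The deep libraries lie below this limit, so on this scale a level like theirs was not detectable in milk exosome 2.

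The erythrocyte list held 90.3% of milk exosome 3 and 90.7% of milk 1, so shares were also taken without it. miR-221-3p then held 5.40% (4.94% to 5.89%) of milk exosome 1 and 0.258% (0.247% to 0.269%) of milk exosome 3, with up to 0.0791% (3 reads) allowed in milk exosome 2, where the exact interval ends at 0.0972%. It held 0.324% (0.312% to 0.336%) of milk 1, 3.42% (2.87% to 4.05%) of milk 2 and 0.236% (0.0643% to 0.602%) of milk 3. On this scale milk exosome 3, milk 1 and milk 3 lay close together, although the intervals of milk exosome 3 and milk 1 do not overlap. The interval of milk 3 covers the values of both others. Milk exosome 1 and milk 2 stood apart above these 3 libraries. Set at the floor of 3 reads, the share in milk exosome 2 was 68.2-fold lower than in milk exosome 1 and 43.3-fold lower than in milk 2. It was 4.10- and 3.26-fold lower than in milk 1 and milk exosome 3. These ratios use the point values of the other libraries. The exact interval of milk exosome 2 ends above the floor, at 0.0972%, which allows smaller ratios. The muscle list, which held 55.6% of milk exosome 2, stayed in these shares. Without that list as well, 1 read of milk exosome 2 is worth 0.0619%, and the floor is 3 such reads. miR-221-3p then held 0.324% of milk 1 and 0.258% of milk exosome 3. The ratios to these deep libraries thus fall well below the 4.10- and 3.26-fold above. Over all listed sequences both deep libraries lay below the limit of milk exosome 2. Against milk 3, with 4 reads and an interval that reaches below this floor, no lower level is shown.

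miR-222 was likewise high in milk exosome 1 and milk 2. Without the erythrocyte list it held 1.29% (1.07% to 1.55%) of milk exosome 1, 0.0264% (0.000668% to 0.147%) of milk exosome 2 and 0.124% (0.116% to 0.132%) of milk exosome 3. It held 0.128% (0.120% to 0.136%) of milk 1, 2.44% (1.97% to 2.99%) of milk 2 and 0.177% (0.0365% to 0.516%) of milk 3. The interval of milk exosome 2, from 1 read, covers the values of both deep libraries, so no lower level is shown there. The deep libraries had overlapping intervals, although 1 is an exosome and 1 a milk library. For this miRNA the order of the high libraries was turned, with milk 2 above milk exosome 1 and no overlap of their intervals. miR-221-5p held 0.260% (0.165% to 0.390%) of milk exosome 1, against 0.00693% (0.00520% to 0.00904%) of milk exosome 3 and 0.00474% (0.00339% to 0.00645%) of milk 1. In milk 2 and milk 3 it held 0.0531% (0.00643% to 0.192%) and 0.0589% (0.00149% to 0.328%), and milk exosome 2 allows up to 0.0791%.

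**Figure D2:**
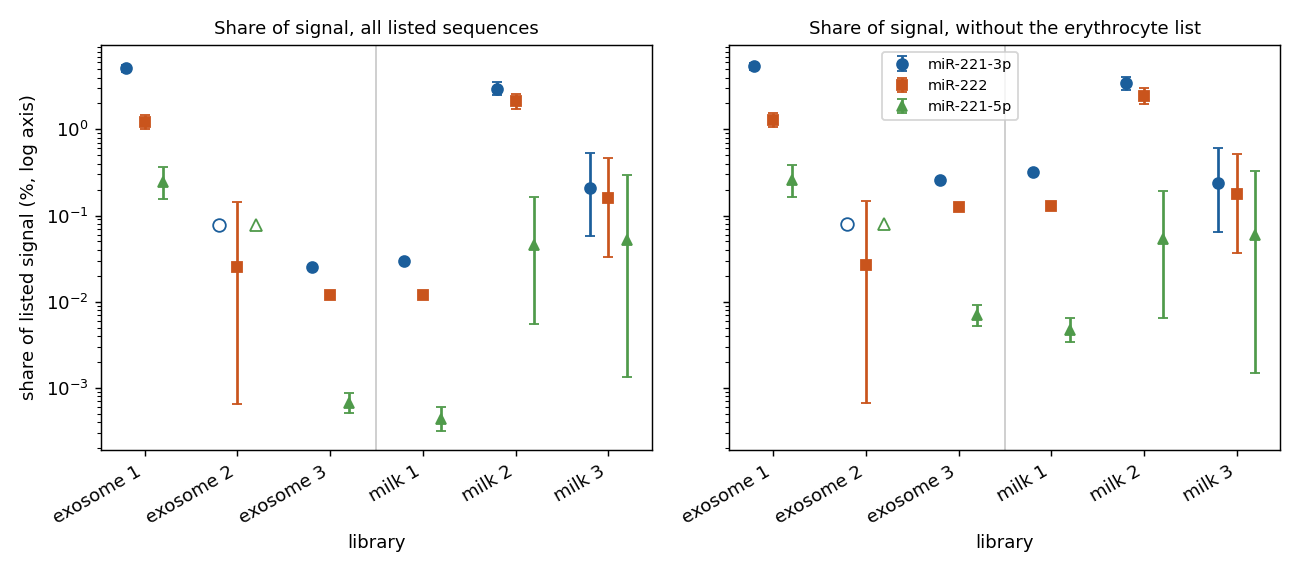
Share of the listed signal (percent, log axis) held by each member in each library, over all listed sequences (left) and without the erythrocyte list (right), with exact 95% intervals. Hollow symbols stand at the share of 3 reads where a miRNA was listed at 0; without the erythrocyte list miR-221-3p held 0.258% in milk exosome 3, against 0.324% in milk 1 and 0.236% in milk 3.

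All listed members together held 6.59%, 0.0256% and 0.0378% of the signal in milk exosomes 1, 2 and 3, against 0.0422%, 5.13% and 0.421% in milk 1, 2 and 3. The marker lists beside these values moved in several ways. In milk exosome 2, where the members were at or near 0, the muscle list held 55.6% of the signal. The endothelial and stromal list held 14.0% there and the epithelial list 0.0256%. There 4 of the 5 epithelial sequences were at 0, in a library with 122 of all 238 listed sequences above 0. In milk exosome 1 and milk 2, where the members were high, the muscle list held 7.82% and 10.7%, the endothelial and stromal list 2.61% and 8.40%, and the epithelial list 0.408% and 0.391%. Milk 3 had the highest endothelial and stromal share (16.7%) and the highest epithelial share (1.26%), with the members at 0.421%. The part of other cell types in the level of miR-221 and miR-222 was not tested.

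Among the sequences of a library, miR-221-3p ranked 4th of 200 detected in milk exosome 1, between miR-21 (6746) and miR-1 (4242). It ranked 8th of 167 in milk 2, between miR-451 (2782) and miR-92a (1620). In the deep libraries it ranked 56th of 223 in milk exosome 3, between miR-335 (191) and miR-125b (174), and 51st of 223 in milk 1, between miR-320 (212) and miR-374a-5p (191). In milk 3 it ranked 62nd of 132, level with miR-20a and miR-429 at 55.3, which is 4 reads. miR-222 ranked 19th, 86th and 73rd in milk exosomes 1, 2 and 3, and 71st, 13th and 72nd in milk 1, 2 and 3. It thus stood among the leading miRNAs in milk exosome 1 and milk 2 and in mid-list in milk exosome 3, milk 1 and milk 3.

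The balance between the reads of the members can be taken inside a library, free of scaling between libraries. Of the summed reads of miR-221-3p and miR-222, miR-222 made up 19.3% (95% interval 16.2% to 22.7%, 591 reads) in milk exosome 1 and 32.5% (30.8% to 34.2%, 2975 reads) in milk exosome 3. It made up 28.3% (26.8% to 29.7%, 3813 reads) in milk 1 and 41.6% (35.1% to 48.4%, 92 reads beside 129 of miR-221-3p) in milk 2. The exosome range thus spans the value of milk 1. Milk 3 had 7 reads of the pair (42.9%, 9.90% to 81.6%) and milk exosome 2 had 1 read, which was miR-222, so these libraries carry little weight. In each of the 4 libraries with over 100 reads of the pair, miR-221-3p had more reads than its partner, by 4.18-, 2.08-, 2.54- and 1.40-fold in milk exosome 1, milk exosome 3, milk 1 and milk 2. Between the alike libraries the change in balance ran both ways. miR-222 had a larger share in milk exosome 3 than in milk 1, and a smaller share in milk exosome 1 than in milk 2, with intervals apart in both cases.

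The 5p arm was the minor arm of miR-221 in the 5 libraries with reads of the hairpin. It made up 4.60% (2.94% to 6.82%) of 500 reads in milk exosome 1 and 2.62% (1.97% to 3.40%) of 2063 reads in milk exosome 3. It made up 1.44% (1.03% to 1.96%) of 2775 reads in milk 1, 1.53% (0.185% to 5.41%) of 131 reads in milk 2 and 20.0% (0.505% to 71.6%) of 5 reads in milk 3. The intervals of milk exosome 3 and milk 1 lie just apart, and that of milk 2 overlaps those of both exosome libraries. These intervals compare libraries, and with 2 informative libraries a group the difference between groups was not tested. Other hairpins give the scale. In milk exosome 3, 27 hairpins had both arms listed and reads on at least 1 arm, with a median minor-arm share of 17.4% and 6 of them below miR-221. In milk 1 there were 28, with a median of 11.6% and 7 below miR-221. In milk exosome 1 the median was 6.46% with 12 of 28 below miR-221, which lay near the middle there, and in milk 2 it was 14.3% with 8 of 27 below. In both of these shallow libraries most hairpins below miR-221 had a minor arm at 0%, some with few reads on the hairpin. In milk exosome 1, for example, miR-374a-5p was at 36.0, where 1 read is worth 9.01, and its other arm at 0. The ranks in the shallow libraries therefore carry little weight.

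**Figure D3:**
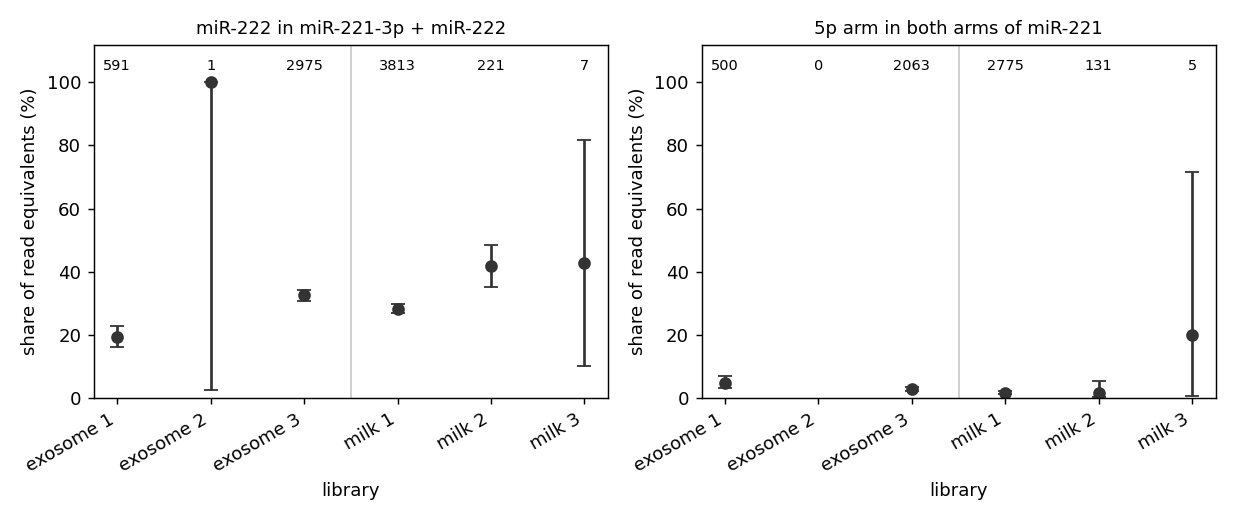
Share of miR-222 in the reads of miR-221-3p and miR-222 together (left) and of the 5p arm in the reads of both arms of miR-221 (right), in percent of read equivalents with exact 95% intervals. Numbers at the top are the reads behind each share; milk exosome 2 had 1 read of the pair and 0 of the hairpin, so its shares are not informative.

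For milk exosome against milk, limma was run on log2(value + 1) of the 141 entries that reached 10 in 3 or more of the 6 libraries, and all 3 members passed this filter. Since it reads values, 1 read passed it in milk exosome 2, milk 2 and milk 3. miR-221-5p passed with 23, 2 and 1 reads in milk exosome 1, milk 2 and milk 3. Its 54 and 40 reads in milk exosome 3 and milk 1 gave 5.06 and 3.04, below the filter. In this fit 0 of the 141 entries passed at a Benjamini-Hochberg adjusted p of 0.05 (0%), and 0 had an unadjusted p under 0.05 in limma. No member was therefore called. On the log2 scale the fold change was -1.58 for miR-221-3p (SE 2.95), -0.42 for miR-222 (SE 1.94) and -0.17 for miR-221-5p (SE 2.26), with n = 3 libraries per group. Each SE exceeded its fold change. The 95% intervals ran from -8.44 to 5.28, from -4.94 to 4.10 and from -5.42 to 5.09, so large changes in either direction remain within them. Below 0 lay 57 of the 141 entries (40.4%), and the median over all 141 was 0.34. Deposited values did not overlap between the groups for 2 of 141 entries (1.42%), and the members were not among them.

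The negative sign of miR-221-3p did not hold without milk exosome 2. Without milk exosome 2 its log2 fold change was 1.69 (SE 1.87), with the median of all entries at 1.00, and without milk exosome 1 it was -4.34 (SE 2.69). Without milk 2 it was -0.22, without milk 3 -2.74, without milk exosome 3 -2.09 and without milk 1 -1.79. With the value listed at 0 set to 3 reads, a setting chosen after the values were seen, it was 0.39. The mean of the deposited values was also higher in exosomes (1495 against 704), while the mean of log2 values was lower (6.54 against 8.12). miR-222 was at 0.88 without milk exosome 2, at -1.94 without milk exosome 1, at 1.07 without milk 2, at -1.41 without milk 3, at -0.92 without milk 1 and at -0.20 without milk exosome 3. miR-221-5p was at 1.55 without milk exosome 2, at -2.30 without milk exosome 1, at 0.48 without milk 2, at 0.25 without milk exosome 3, at -0.96 without milk 1 and at -0.02 without milk 3. The residual SD of miR-221-3p was 4.67 on the log2 scale, the 12th largest of 141, against a median of 2.50. Those of miR-222 and miR-221-5p were 2.74 and 2.96.

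**Figure D4:**
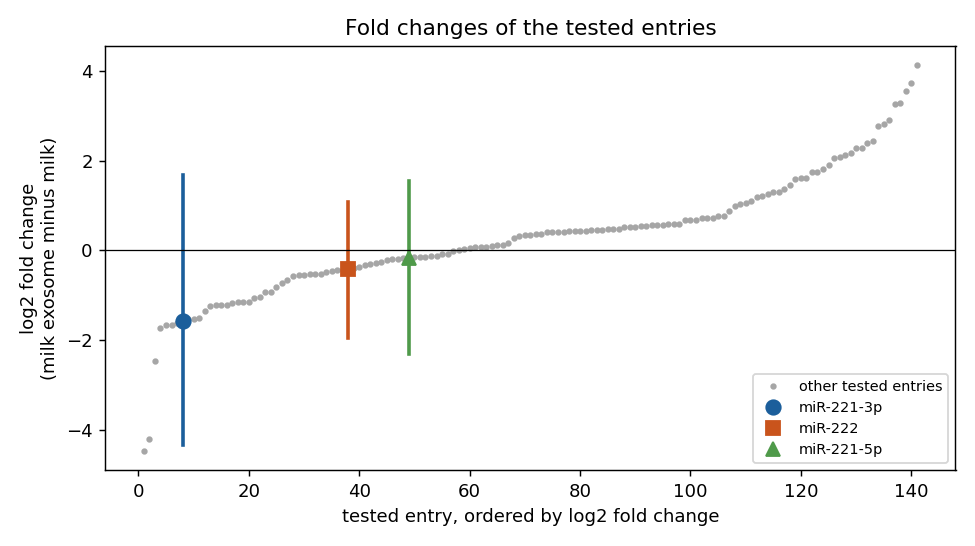
Log2 fold change (milk exosome minus milk) of the 141 tested entries in ascending order, with the 3 members marked. Vertical lines span the values of a member with 1 library left out in turn, from -4.34 to 1.69 for miR-221-3p, and each of them crosses 0.

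Within a depth class the values were as follows. From the deep pair, milk exosome 3 less milk 1, the log2 difference was -0.14 for miR-221-3p, 0.14 for miR-222 and 0.59 for miR-221-5p. The median absolute difference over the 135 tested mature names was 0.29, so miR-221-3p and miR-222 moved less than that and miR-221-5p moved more. In the 4 shallow libraries alone the log2 fold change was -2.30 for miR-221-3p (SE 4.69), -0.70 for miR-222 (SE 2.80) and -0.54 for miR-221-5p (SE 3.10). Between milk exosome 1 and milk 2, the most alike of the shallow libraries, the log2 difference was 1.22 for miR-221-3p, -0.36 for miR-222 and 2.81 for miR-221-5p, where the median absolute difference was 0.82.

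A value of 0 in milk exosome 2 was shared by many miRNAs. Of the 135 tested mature names, 35 were listed at 0 there, and 19 of them were above 0 in every other library, miR-221-3p among them. By mean over the 6 libraries miR-221-3p ranked 22nd of the 135. Of the names above it, 4 were also listed at 0 in milk exosome 2. These were miR-144, miR-20a, miR-19b and miR-15a, named after their values were seen. miR-144, an erythroid miRNA, was at 0, 0 and 29230 in exosomes, against 17517, 129 and 138 in milk. miR-20a and miR-19b, of the miR-17-92 group, were at 1549 and 1288 in milk exosome 1.

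The miRNAs with the most alike profile were sought by the root-mean-square difference of log2(value + 1), each centred on its own mean, over 6 libraries and 134 other tested names. The nearest were miR-296-3p (1.38), miR-210 (1.72), miR-130b (1.73), miR-1307 (1.74), miR-9841-3p (1.79) and miR-185 (1.93), where the median over all names was 3.65. All 6 were listed at 0 in milk exosome 2, and 4 of the 6 were highest in milk exosome 1. miR-296-3p, for example, was at 495, 0 and 19.7 in exosomes, against 23.2, 86.0 and 13.8 in milk. miR-210, which responds to low oxygen, was at 459, 0 and 12.8, against 15.5, 129 and 0 in milk. miR-222 stood 7th at 2.10 and miR-221-5p 9th at 2.16. The lowest difference within the cluster was between miR-221-5p and miR-222 (1.34). In the 4 shallow libraries alone, which hold the shared 0 of milk exosome 2, the nearest were miR-20a (0.79) and miR-15a (0.89), 17th and 13th over all 6. The farthest were the muscle miRNAs miR-1 (7.03) and miR-133a-3p (6.87), and miR-885-5p (6.68). miR-1 was at 4242, 27992 and 4.68 in exosomes, against 0.304, 4488 and 69.2 in milk.

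**Figure D5:**
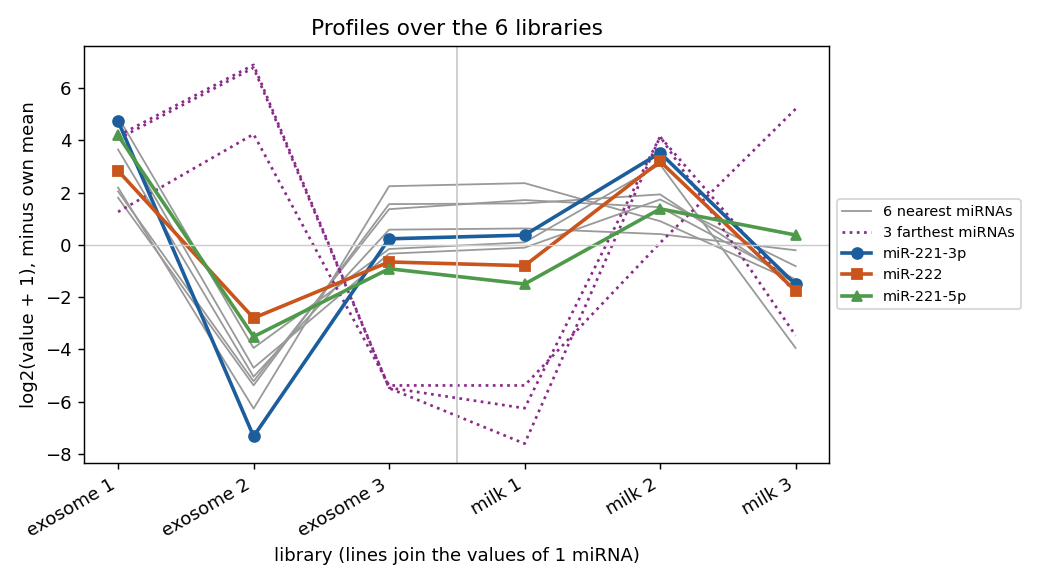
Log2(value + 1) of each miRNA minus its own mean, by library, for the 3 members, the 6 nearest miRNAs (grey) and the 3 farthest (dotted). The members and the 6 nearest are lowest or near lowest in milk exosome 2, where miR-1 and miR-133a-3p are highest.

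Other miRNAs of the processes in which the cluster is known were described by lists, without a test of the list. Of the miRNAs linked to vessel formation other than miR-221 and miR-222, 19 entries were tested. Among these, 14 were lower in exosomes, beside 57 of all 141 entries (40.4%), and 0 were called by limma (0%). The lower entries include both arms of miR-17, miR-18a, miR-19a, miR-19b, miR-20a and miR-92a, all of the miR-17-92 group, and both arms of miR-126. They are thus not 14 independent miRNAs. Their median log2 fold change was -0.49, beside 0.34 for all 141 entries. In milk exosome 2, 9 of the 19 were listed at 0, against 36 of the 141 (25.5%). Without milk exosome 2, 5 of the 19 were lower, with a median of 1.51 beside 1.00 for all entries, and without milk 1, 8 of 19 were lower with a median of 0.15 beside 0.49. miR-16 and miR-92a, the most abundant of them, had log2 fold changes of -0.92 (SE 2.23) and -0.72 (SE 1.57).

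The list of miRNAs known to repress KIT was matched by name on either arm, and 1 other entry was tested. This entry, miR-193a-5p, came in by that match, which does not tell which arm represses KIT. miR-193a-5p was at 36.0, 19.7 and 1.12 in exosomes, against 0.304, 0 and 83.0 in milk. Its log2 fold change was 1.30 (SE 2.24). miR-193a-3p, at 0 to 18.0 over the 6 libraries, did not pass the filter.

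Of the most abundant pair of each marker list, miR-451 and miR-16 had log2 fold changes of -4.20 and -0.92, miR-142-5p and miR-142-3p of -0.57 and -0.15, and miR-205 and miR-182 of 0.16 and -2.46. miR-133a-3p and miR-1 had 3.73 and 3.56, miR-10b and miR-99a had 2.09 and 0.34, and miR-21 and miR-148a-3p had -0.17 and -1.15. Their SEs ran from 1.15 (miR-99a) to 4.10 (miR-451), and none of these was called by limma. A pair need not stand for its list. Of the tested entries, 3 of 5 erythrocyte, 4 of 6 leukocyte, 2 of 3 epithelial and 0 of 6 muscle entries were lower in exosomes. It was 7 of 13 for the endothelial and stromal list and 3 of 8 for the milk-abundant list, beside 57 of all 141 (40.4%).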

How the data were processed

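Small RNA of 3 milk exosome and 3 milk samples was sequenced. Per the labels' protocols, Trizol RNA entered TruSeq Small RNA libraries which were read from one end over 36 bp. The authors deposited signal, that is, an abundance per miRNA that they had normalized. How it was normalized, and the aligner, annotation and filters, is not given in the sources used here. Since the values are not counts, no count model was used. Of 279 lines, 34 repeated another exactly and were dropped, which left 245 entries, 238 sequences and 221 mature names. The 6 value columns of a second sheet match no sample label and were not used. Only its names and sequences were read.

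Reads were estimated from the most frequent value above 0 of each library. Within 0.01 reads, 70.4% to 88.0% of values were whole multiples of it, so read equivalents are estimates. They gave 2 deep and 4 shallow libraries, split at 131691. The comparison used limma 3.58.1 (R 4.3.3), its trend option and log2(value + 1), which understates the change of low miRNAs in deep libraries, Benjamini-Hochberg adjustment and a threshold of 0.05. The fit was tested on simulated data, with a pass mark set only at a spread far below the median residual SD here (2.50). That pass does not tell what part of true changes is found at the spread of these data. The simulation was also run at a spread above that median, without a pass mark, and the part found there is not reported here. Other steps used Python 3.11.15, numpy 2.4.6, pandas 2.3.3, scipy 1.17.1 and matplotlib 3.10.9. The members, lists, rules and tests were chosen with earlier results of these data known. Besides the members, the miRNAs named were the 6 nearest and 3 farthest by profile, the top 2 of each list and the neighbours in rank. Names outside this rule were chosen after their values were seen. Lists were matched on either arm. One of the planned lists is not reported here.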

Additional observations from a re-analysis of the deposited data

How the results depend on the processing

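Over the 19 alternatives run, limma called 0 of the tested miRNAs in each. The count with an unadjusted p under 0.05 was 5 without milk exosome 3, 2 in the shallow libraries alone, 2 with depth class as a term, 1 after rescaling to a common total and 0 in the others. The log2 fold change of miR-221-3p lay between -4.34 and 1.69 when each library was left out, and from -2.90 to 0.39 under the other settings. It was -2.68 with a pseudocount of 0.1 and -0.54 with one of 10. Rescaling to a common total gave -2.90, with the median of all entries at -0.30 and 66.0% of entries lower, and without the erythrocyte list -2.29 (-0.39, 70.2%), against 40.4% as deposited. Relative to that median miR-221-3p was at -1.92 as deposited, and at -2.60 and -1.90 after these rescalings. It was -1.69 after recentring on the median. miR-222 ran from -1.94 to 1.07 and miR-221-5p from -2.30 to 1.80. miR-221-5p was at 0.48 with a pseudocount of 10 and 1.80 with its 0 set to 3 reads. With values of 100 or more required, miR-222 and miR-221-5p were no longer tested. The share of miR-221-3p differed by 0.646 percentage points (exosome minus milk), from -1.06 to 1.60 with 1 library left out and from 0.557 to 0.972 otherwise. Between libraries of the same replicate number, correlations of deviations were -0.25, 0.39 and -0.48 for numbers 1, 2 and 3, while milk exosome 3 and milk 1 had 0.85. Numbers 1 and 3 each set a deep library beside a shallow one, so these values cannot tell if libraries of the same number share an animal. With the replicate block the log2 fold change of miR-221-3p stayed at -1.58 (SE 2.46) with 0 calls, and the mean of same-number differences in share was 0.646. Depth limits the shallow libraries, where 1 read is worth 9.01 to 19.7.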
